A study of Mus musculus with 10 samples.

Results

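Potassium channel genes of the mouse thoracic aorta were compared between control mice and mice lacking PRDM16 in VSMCs. PRDM16 is a zinc-finger transcription factor. The members were taken by name, as all genes of the RNA-Seq table whose symbol starts with Kcn followed by lower-case letters and a number, and this gave 98 of 55426 genes. No measured value enters this rule, but it was set with earlier results of these data known. By symbol they fell into 30 voltage-gated pore subunits (Kcna, Kcnb, Kcnc, Kcnd, Kcnh, Kcnq), 10 modifier pore subunits that are silent alone (Kcnf, Kcng, Kcns, Kcnv), 12 voltage-gated auxiliary subunits (Kcnab, Kcne, Kcnip), 15 inward rectifiers (Kcnj), 14 two-pore channels (Kcnk), 12 calcium- and sodium-activated channels with their subunits (Kcnma, Kcnmb, Kcnn, Kcnt, Kcnu), and 5 non-coding records.

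RNA was sequenced from 3 Control aortas (Prdm16f/f without Cre) and 3 Prdm16SMKO aortas (Prdm16f/f with SMMHC-CreERT2), 1 library per aorta. SMMHC-CreERT2 is a tamoxifen-dependent Cre under the smooth muscle myosin heavy chain promoter, which acts in smooth muscle cells and leaves the gene intact in the other cells of the wall. The knockout mice had received tamoxifen from 8 weeks of age at 75 mg/kg/day for 5 days, followed by a washout of 2 weeks. Whether the control mice received tamoxifen, and how old the mice were and at what hour the aortas were collected, were not given in the sources used here. PRDM16 binding was measured by ChIP-Seq in primary mouse vascular fibroblasts, which are not VSMCs, in which a lentivirus delivered PRDM16 with a Flag tag, or no insert, for 48 hours. The infected cells were kept under puromycin (2 μg/mL) for 1 week, and each condition gave 1 anti-Flag library with no replicate.

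Potassium channels let K+ leave the cell and hold the membrane of a smooth muscle cell at a negative potential. When they open, voltage-gated calcium channels close and the artery relaxes, and when they close, the cell depolarizes and contracts. Arterial smooth muscle is known for several classes that do this together. These are voltage-gated (Kv) channels that open on depolarization, large-conductance calcium-activated (BK) channels that open when calcium is released nearby, ATP-sensitive (KATP) channels that couple the potential to metabolism, inward rectifiers, and two-pore channels that carry a background leak. Most of these channels are built from pore subunits that determine the current and auxiliary subunits that shift its gating or carry it to the membrane.

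Expression is given as TPM, the abundance of a gene's transcripts relative to all transcripts of the library after division by length, so that levels of different genes can be set side by side. Control and Prdm16SMKO aortas were compared by a limma fit of log2(TPM + 0.1) to the 15668 genes whose mean over the aortas reached 0.5 TPM, and a gene is referred to as called when its Benjamini-Hochberg adjusted P value over all those genes was under 0.05. For Prdm16 itself the control aortas gave 56.1, 47.6, and 40.3 TPM and the Prdm16SMKO aortas 23.3, 33.3, and 23.4 TPM, with no overlap between the groups (log2 fold change −0.85, adjusted P = 0.0725, limma). Over all tested genes the log2 fold change had a median of −0.12, which is the level against which a member's fold change is read, and it was 0.00 once every aorta had been divided by the median, over genes, of its ratio to the gene's geometric mean over the 6 aortas (median ratio rescaling). The 6 smooth muscle markers fixed for this comparison (Acta2, Tagln, Myh11, Cnn1, Smtn, Lmod1) summed to between 13730 and 24074 TPM. Markers of fibroblasts (789 to 1171 TPM) and brown adipocytes (405 to 1622 TPM) were also present in each aorta. Markers of neurons summed to 1.68 to 2.54 TPM. Among these, Snap25 was listed at 0 throughout and Stmn2 at 0.96 to 1.78 TPM.

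The 12 highest genes carried most of the potassium channel transcript of the control aorta. Their control means made up 90.9% of the summed TPM of all 98 members, while 63 members had a control mean under 0.5 TPM and 8 were listed at 0 in every aorta. Kcnab1, a cytosolic beta subunit that binds Kv channels of the Kcna family, was the highest at 156, 136, and 124 TPM in the control aortas. Kcnmb1, the beta1 subunit that raises the calcium sensitivity of the BK channel in smooth muscle, came next with 83.1 ± 8.92 TPM (SD, n = 3), and Kcnh2, the pore subunit of the rapid delayed rectifier best known from the heart, followed with 79.7 ± 13.4 TPM (SD, n = 3). The ranges of these last 2 genes overlapped, so their order was not resolved, but Kcnab1 lay above both in every control aorta and Kcnma1 below both.

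Kcnma1, the BK pore subunit itself, had 34.7 ± 3.94 TPM (SD, n = 3), above all genes further down the order. From Kcnj8 at 22.8 ± 2.42 TPM (SD, n = 3), through Kcnj15, Kcnc4, Kcne4, and Kcnk3, to Kcnd3 at 13.4 ± 1.40 TPM (SD, n = 3), each gene overlapped the next one in range. The highest gene outside the first 12, Kcnip4, reached at most 8.56 TPM in a control aorta. The 4 voltage-gated pore subunits of the Kcna family that were tested reached at most 2.72 TPM in any aorta. In the Prdm16SMKO aortas Kcnab1 was again the highest by mean. Kcnc4, the eighth in control, was the third by mean, but its range overlapped those of Kcnmb1 and Kcnh2, so that the order of these 3 was not resolved.

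**Figure D1:**
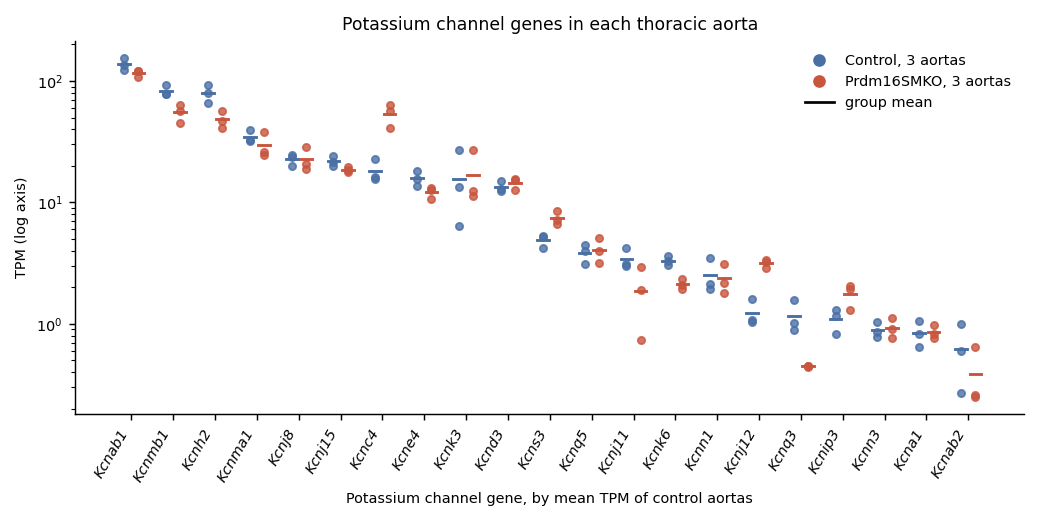
TPM of 21 potassium channel genes, those that were called, among the highest in control, without overlap between the groups or tested and with a promoter peak, on a log axis, in 3 Control (blue) and 3 Prdm16SMKO (red) thoracic aortas, with the mean of each group as a line. Kcnab1 is highest in both groups, and the red points of Kcnc4 at 40.7 to 64.0 TPM lie above the blue points at 15.7 to 22.7 TPM.

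Of the 98 members, 33 passed the filter and were tested, with Kcnab2 just inside it at a mean of 0.503 TPM and Kcnt1 just outside at 0.480 TPM. Of the 33, 1 was called higher and 0 were called lower in Prdm16SMKO aortas, against 0.389% of all tested genes called higher (61 genes) and 0.683% called lower (107 genes). By limma, 10 of the 33 had an unadjusted P value under 0.05 (30.3%, against 12.7% of all tested genes). Their median log2 fold change was −0.02, with 16 positive and 17 negative, where the median of all tested genes was −0.12, with 5032 positive and 10636 negative. For 4 members every Prdm16SMKO value was higher than every control value (12.1%, against 4.08% of all tested genes), and for 8 every value was lower (24.2%, against 14.9%). Among genes with a mean of at least 5 TPM, the groups did not overlap for 7 of the 14 members and for 22.1% of all 9687 genes. These shares describe the list and were not tested, and 2 of the 33 members, Kcnab2 and Kcnq3, passed the filter only through the control group. Kcnq3 is 1 of the 8 lower members and 1 of the 10 with an unadjusted P value under 0.05 by limma. Of the 57 members under the filter that were above 0 TPM in at least 1 aorta, 3 were higher without overlap (5.26%, against 3.01% of the 10560 such genes) and 4 lower (7.02%, against 3.18%).

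Kcnc4 was the only member called. It encodes the pore subunit of a fast-inactivating channel of the Kcnc (Kv3) family that opens only at strongly depolarized potentials. Its level was 22.7, 16.1, and 15.7 TPM in control and 56.8, 64.0, and 40.7 TPM in Prdm16SMKO aortas. The lowest knockout value was thus well above the highest control value, and on average the knockout aortas reached 296% of control (log2 fold change 1.56, standard error [SE] 0.21, adjusted P = 0.00957 in the limma fit). The gene (ENSMUSG00000027895; chromosome 3 of GRCm38, 107438303 to 107459552, reverse strand) overlapped no other annotated gene. Of 6 markers of neurons, where this gene is also known, Snap25 was listed at 0 in all aortas, and the sum of the 6 was 1.68 to 1.85 TPM in control and 1.96 to 2.54 TPM in Prdm16SMKO aortas. Tubb3 among them was higher in each knockout aorta, at 0.18 to 0.55 against 0.62 to 0.87 TPM, and it passed the filter only through the knockout group. The part of neurons in the Kcnc4 values was not tested. Over 14 alternative settings the log2 fold change was 1.42 to 1.74. The call was lost, by limma, without control aorta 2 (adjusted P = 0.113), without control aorta 3 (0.104), without Prdm16SMKO aorta 1 (0.0849), without Prdm16SMKO aorta 2 (0.0650), and with all aortas but no mean-variance trend (0.0814).

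Kcnc4 also had a PRDM16 peak at its promoter in the fibroblasts. A promoter peak is one whose centre lies within 2 kb of a RefSeq TSS. The peak spanned 691 bp, from 107459167 to 107459857 on chromosome 3, with a fold enrichment of 4.22, higher than 18.4% of the 11271 peaks of that library, and a −log10 q of 3.19. Its centre lay 614 bp upstream of the RefSeq TSS at 107458898. GENCODE starts the gene further upstream, at 107459552, and by that annotation the centre was 40 bp downstream of the start, in the first exon. The part of the peak that lies upstream of both annotated starts is shown because it is from the only promoter peak of a member that was called in the aorta. That part holds neither the centre nor the summit of the peak. It is given 5′ to 3′ on the strand of the gene (chr3:107459553-107459852 of GRCm38, reverse strand), with CpG dinucleotides in capitals. Below it, for contrast, stand the 250 bases upstream of the RefSeq TSS of Kcnmb1 (chr11:33962763-33963012, forward strand), a highly expressed member without a promoter peak.

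Kcnc4: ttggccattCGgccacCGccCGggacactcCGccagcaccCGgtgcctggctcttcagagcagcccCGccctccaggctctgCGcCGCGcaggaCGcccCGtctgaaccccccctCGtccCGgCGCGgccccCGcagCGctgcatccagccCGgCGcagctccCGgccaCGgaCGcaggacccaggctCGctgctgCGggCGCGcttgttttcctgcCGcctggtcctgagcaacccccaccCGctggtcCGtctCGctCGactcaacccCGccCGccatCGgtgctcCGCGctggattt

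Kcnmb1: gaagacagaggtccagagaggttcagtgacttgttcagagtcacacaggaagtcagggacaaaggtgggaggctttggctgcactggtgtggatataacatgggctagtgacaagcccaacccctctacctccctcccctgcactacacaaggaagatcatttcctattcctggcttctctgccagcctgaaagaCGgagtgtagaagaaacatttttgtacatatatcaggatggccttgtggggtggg

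The Kcnc4 stretch held 36 CpG dinucleotides in 300 bases with a GC content of 74.0%, and the Kcnmb1 stretch held 1 in 250 bases with a GC content of 50.8%.

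The other 11 voltage-gated pore subunits tested did not pass the threshold in either direction, and 3 of them had an unadjusted P value under 0.05 by limma. Of the 12 tested in this family, 6 had positive and 6 negative fold changes, with a median of −0.03. Kcnh2 was lower in each Prdm16SMKO aorta, with 93.3, 79.4, and 66.5 TPM in control and 46.7, 56.96, and 40.9 TPM in knockout aortas (log2 fold change −0.72, SE 0.17, adjusted P = 0.0908, limma). Kcnq3, a subunit of the neuronal M-current, had a low level without overlap, at 0.89 to 1.58 TPM in control and 0.44 to 0.45 TPM in Prdm16SMKO aortas. It passed the filter only through the control group, where it is high, so no fold change is read from it.

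Kcnd3, Kcnq5, and Kcna1 showed differences smaller than the spread between aortas. Kcnd3, a transient A-type channel, had 13.4 ± 1.40 TPM in control and 14.5 ± 1.68 TPM in Prdm16SMKO aortas (SD, n = 3 each; log2 fold change 0.12, SE 0.15). Kcnq5, another subunit of the Kcnq family, had 3.86 ± 0.694 and 4.05 ± 0.954 TPM (SD, n = 3 each; log2 fold change 0.06, SE 0.24). Kcna1, a pore subunit of the Kcna family, was near the filter at 0.837 ± 0.206 and 0.850 ± 0.108 TPM (SD, n = 3 each). Kcnd3 lies across from the non-coding Kcnd3os on the other strand, and the library kit named in the labels does not mark strand, so reads of such a pair could not be told apart.

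Among the modifier and auxiliary subunits 0 of 6 tested genes were called by limma (2 with an unadjusted P value under 0.05), and 4 had groups that did not overlap, 2 in each direction (4.08% of all tested genes were higher and 14.9% lower). Kcns3, a silent subunit that changes the gating of the pore subunits it joins, was higher in each Prdm16SMKO aorta, with 5.25, 5.17, and 4.20 TPM in control and 6.65, 8.48, and 7.12 TPM in knockout aortas (log2 fold change 0.60, SE 0.18, adjusted P = 0.20, limma). It was the only one of 10 modifier subunits that passed the filter. Kcnip3, a calcium-binding partner of Kcnd channels, had 1.29, 1.17, and 0.82 TPM in control and 1.92, 2.04, and 1.31 TPM in knockout aortas (log2 fold change 0.64, adjusted P = 0.47, limma). Its highest control value and its lowest knockout value were nearly equal. A PRDM16 peak of 226 bp lay 259 bp upstream of a RefSeq TSS of Kcnip3 in the fibroblasts, with a fold enrichment of 4.81. That TSS, at 127482499 on chromosome 2, lies inside the gene (127456498 to 127522094, reverse strand). The centre of the peak fell in an intron.

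Kcnab1 stood below its controls, at 121, 120, and 109 TPM in the Prdm16SMKO aortas against a lowest control value of 124 TPM (log2 fold change −0.24, SE 0.12, adjusted P = 0.451, limma). Kcne4, a single-span subunit that modulates Kcnq and other Kv channels, had 18.03, 13.8, and 15.6 TPM in control and 13.1, 12.7, and 10.6 TPM in Prdm16SMKO aortas (log2 fold change −0.38, SE 0.16, adjusted P = 0.366, limma). Both were lower without overlap, and neither passed the threshold. Kcnab2, the second Kv beta subunit, ranged from 0.25 to 1.00 TPM over the 6 aortas and its groups overlapped.

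**Figure D2:**
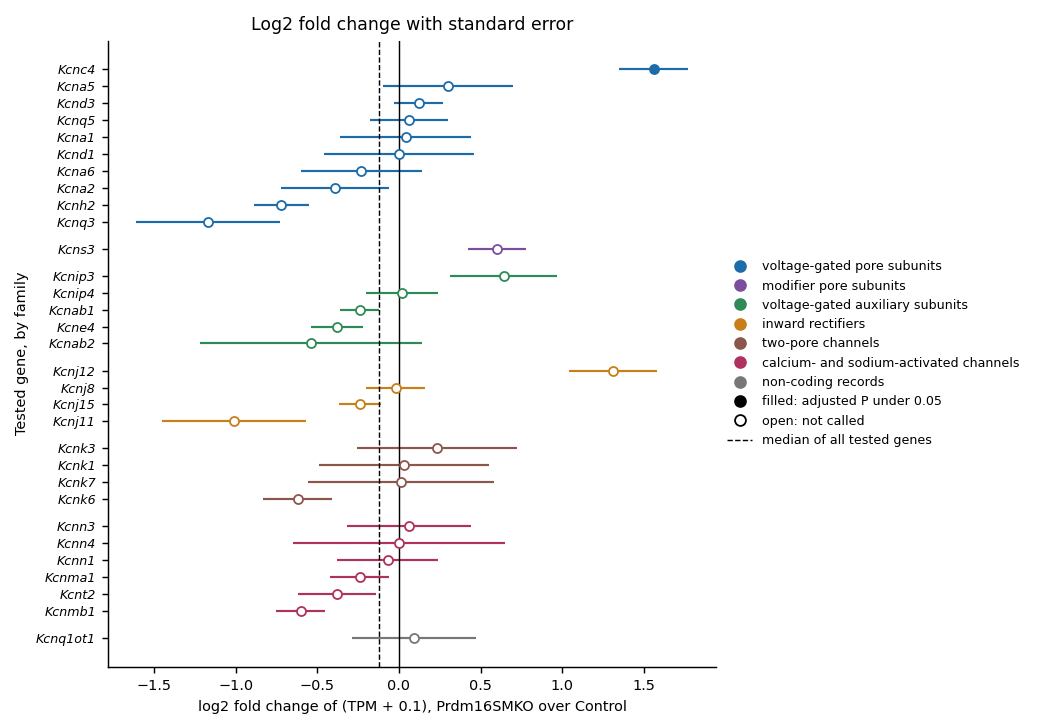
Log2 fold change of TPM + 0.1 in Prdm16SMKO over Control aortas with its standard error for 31 of the 33 tested genes, ordered by family, with the median of all tested genes dashed at −0.12. The filled point, Kcnc4 at 1.56, is the only gene with an adjusted P value under 0.05, and the other 30 points lie between −1.17 and 1.31. The lowest point, Kcnq3, passed the filter only through the control group.

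Among the 4 inward rectifiers tested, 0 were called by limma (2 with an unadjusted P value under 0.05), and 3 had groups that did not overlap, 1 of them higher and 2 lower in Prdm16SMKO aortas (4.08% and 14.9% of all tested genes). Kcnj12, the pore subunit of a strong inward rectifier of the Kir2 family, had 1.03, 1.59, and 1.07 TPM in control and 2.87, 3.26, and 3.34 TPM in Prdm16SMKO aortas. Its knockout mean was 257% of the control mean, with no overlap (log2 fold change 1.31, SE 0.27, adjusted P = 0.0643, limma). Heart muscle also expresses Kcnj12 and Kcnh2, and of 6 heart muscle markers 1, Tnnt2, was called higher (0.389% of all tested genes). Their sum was 44.9 to 74.8 TPM in control and 513 to 534 TPM in Prdm16SMKO aortas, of which Tnnt2 made up 484 to 503 TPM, while Myh6, Myl7, Ryr2, and Tnni3 overlapped, Actc1 was lower in each knockout aorta, and none was at 0 in all aortas. Their part in the values of Kcnj12 and Kcnh2 was not tested. Kcnj8, the KATP pore of vascular smooth muscle and of pericytes, did not differ beyond the spread, with 22.8 ± 2.42 and 22.7 ± 5.06 TPM (SD, n = 3 each; log2 fold change −0.02, SE 0.18). Kcnj11, the KATP pore of pancreatic beta cells and heart, had 2.98, 3.09, and 4.18 TPM in control and 1.90, 2.96, and 0.74 TPM in knockout aortas (log2 fold change −1.01, SE 0.44, adjusted P = 0.383, limma). Its groups were separated only by the step from 2.96 to 2.98 TPM, which is narrow beside the range within the knockout group. Kcnj15, a weaker rectifier, was lower in each knockout aorta, at 20.04 to 24.2 against 17.7 to 19.5 TPM (log2 fold change −0.24, SE 0.13, adjusted P = 0.488, limma). The remaining 11 inward rectifiers stayed under the filter, Kcnj2 among them at 0.07 to 0.27 TPM.

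Among the two-pore channels, Kcnk3 spread widely within both groups. Kcnk3, which carries an acid-sensitive leak current, had 6.44, 27.1, and 13.5 TPM in control and 11.4, 12.5, and 26.9 TPM in Prdm16SMKO aortas (log2 fold change 0.23, SE 0.49). Control aorta 2 and Prdm16SMKO aorta 3, its highest, were also the aortas with the highest summed TPM of 6 brown adipocyte markers (1622 and 1155 TPM), and control aorta 1, its lowest, had the lowest sum (405 TPM). The other 3 aortas held 464 to 765 TPM of these markers, and the part of brown fat in the Kcnk3 values was not tested. Kcnk6, a weakly conducting two-pore channel, was lower in each knockout aorta, with 3.59, 3.28, and 3.08 TPM in control and 2.35, 2.10, and 1.93 TPM in Prdm16SMKO aortas (log2 fold change −0.62, SE 0.21, adjusted P = 0.263, limma). The other 2 tested genes of the family, Kcnk1 and Kcnk7, reached at most 0.85 and 1.64 TPM, and their groups overlapped.

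In the calcium-activated family the BK channel held most of the transcript, and its 2 subunits differed in how far they lay from their controls. Kcnmb1 had 93.4, 78.1, and 77.9 TPM in control and 56.1, 63.7, and 45.3 TPM in Prdm16SMKO aortas, so that the groups did not overlap and the knockout mean came to 66.2% of control (log2 fold change −0.60, SE 0.15, adjusted P = 0.117, limma). Kcnma1 had 39.2, 31.9, and 33.0 TPM in control and 26.2, 38.1, and 24.8 TPM in knockout aortas, with overlap (log2 fold change −0.24, SE 0.18, adjusted P = 0.612, limma). The other beta subunits of the BK channel, Kcnmb2, Kcnmb3, and Kcnmb4, reached at most 0.45 TPM. Kcnmb1 lies within Kcnip1 on the opposite strand, and Kcnip1 as a whole was listed at 0.05 to 0.27 TPM, so that reads of this pair, too, could not be assigned by strand. The same limit holds for other members that overlap a record on the opposite strand. Among these are Kcnh2, Kcnab1, Kcne4, Kcns3, Kcnj15, and Kcnma1.

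The small-conductance calcium-activated channels were low and overlapped. Kcnn1 had 1.94 to 3.51 TPM in control and 1.81 to 3.12 TPM in Prdm16SMKO aortas, and Kcnn3, known from endothelium, had 0.78 to 1.03 and 0.77 to 1.12 TPM. The sodium-activated Kcnt2 had 2.87 to 3.18 TPM in control and 1.98 to 2.96 TPM in knockout aortas.

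Smooth muscle markers had lower values in the same aortas as Kcnmb1 and Kcnh2. Of the 6 markers, 0 were called by limma and 4 had an unadjusted P value under 0.05 (12.7% of all tested genes). For 4 of the 6, every Prdm16SMKO value was lower than every control value (14.9% of all tested genes). The median log2 fold change of the 6 was −0.40, with Acta2 at −0.63. The summed TPM of the 6 was 20649 to 24074 in control and 13730 to 17733 in knockout aortas, and none of the 6 was at 0. Acta2 was the largest part of this sum, at 11024 to 12433 TPM in control and 6455 to 8230 TPM in Prdm16SMKO aortas. It also had the most negative log2 fold change of the 6, while the groups of Myh11 (−0.24) and Smtn (−0.34) overlapped. A scale built on the sum therefore follows Acta2 most, and no other weighting of the markers was tried. In bulk tissue, fewer cells of a type and less RNA per cell cannot be told apart. Per 1000 TPM of these markers, Kcnmb1 had 3.78 ± 0.0963 TPM in control and 3.46 ± 0.147 TPM in Prdm16SMKO aortas, and Kcnh2 had 3.62 ± 0.348 and 3.04 ± 0.157 TPM (SD, n = 3 each). Both genes were still lower in each knockout aorta on this scale, by a smaller margin than in TPM, and for Kcnh2 the lowest control value (3.22) and the highest knockout value (3.21) nearly met.

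On the same scale the genes with flat or weak differences lay on the other side. Kcnma1 had 1.51 to 1.63 TPM per 1000 TPM of markers in control and 1.63 to 2.15 TPM in Prdm16SMKO aortas, so that its groups met, and Kcnab1 had 5.98 to 6.46 and 6.79 to 7.93 TPM. Kcnc4 kept its difference, at 0.760 to 0.945 against 2.96 to 3.61 TPM per 1000 TPM of markers. These 5 genes were chosen after their values were seen. The part of smooth muscle content, or of Acta2 alone, in their differences on either scale was not tested.

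**Figure D3:**
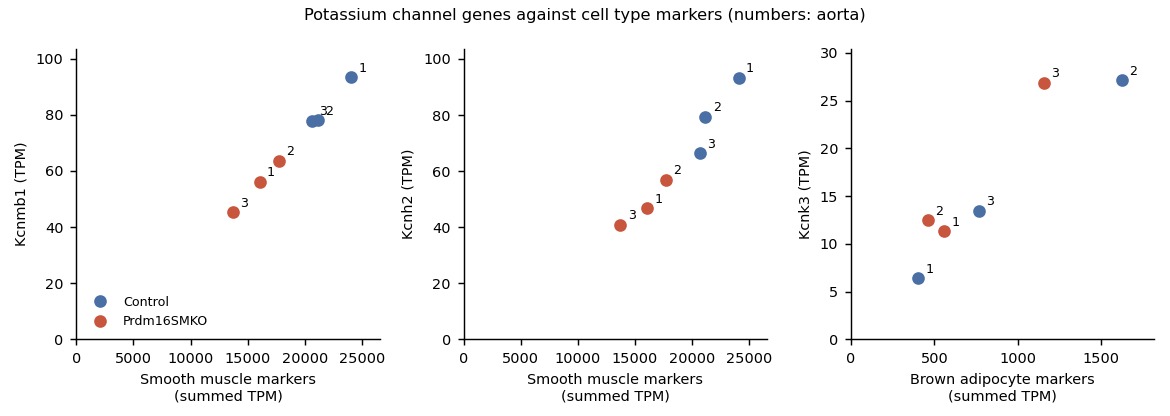
TPM of Kcnmb1 and Kcnh2 against the summed TPM of 6 smooth muscle markers, and of Kcnk3 against the summed TPM of 6 brown adipocyte markers, with 1 point per aorta numbered within its group, Control in blue and Prdm16SMKO in red. The points of Kcnmb1 run from 45.3 TPM at a marker sum of 13730 TPM to 93.4 TPM at 24074 TPM, and the 2 highest points of Kcnk3 are the 2 aortas with marker sums above 1000 TPM.

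A ratio of 2 genes within an aorta does not depend on how the aortas are scaled against each other, and it was taken for 3 pairs of partner subunits, chosen after the values were seen. The ratio of Kcnmb1 to Kcnma1, the beta1 and pore subunits of the BK channel, was 2.38, 2.45, and 2.36 in control and 2.15, 1.67, and 1.83 in Prdm16SMKO aortas. For the KATP channel, the ratio of Abcc9, its sulfonylurea receptor subunit, to Kcnj8 was 4.46, 3.73, and 4.38 in control and 5.91, 4.77, and 5.12 in knockout aortas. In these aortas the values of both ratios did not overlap between the groups, and they were lower in Prdm16SMKO aortas for the BK channel and higher for the KATP channel. Taken singly, Abcc9 and Kcnj8 each overlapped. Single genes did not overlap for 19.0% of all tested genes, and no such share was taken for ratios. An exact permutation test of 3 against 3 cannot give a P value under 0.1, so a threshold of 0.05 cannot be reached for a single ratio. The ratio of Kcnab1 to Kcna5 was 99.6 ± 58.8 and 64.1 ± 26.4 (SD, n = 3 each), the groups overlapped, and it rests on the low TPM of Kcna5 (0.93 to 2.72 TPM). Of the 6 pericyte markers, which include Abcc9 and Kcnj8, 0 were called by limma and 1 had an unadjusted P value under 0.05 (12.7% of all tested genes), and their sum was 678 to 844 TPM in control and 829 to 1226 TPM in Prdm16SMKO aortas. Rgs5 alone did not overlap among them, and the part of pericytes in the KATP ratio was not tested.

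**Figure D4:**
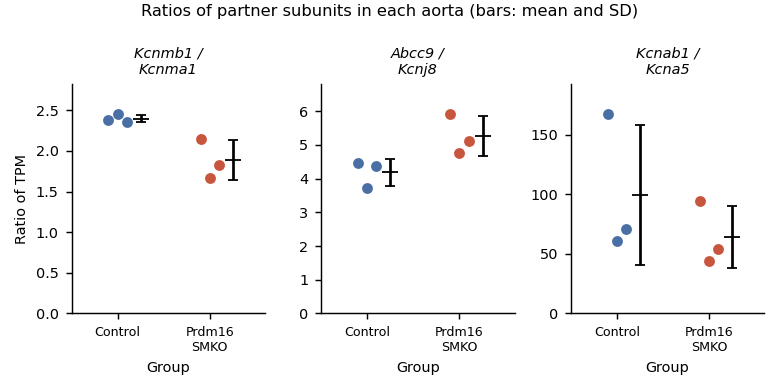
Ratio of the TPM of 2 partner subunits in each aorta, with 1 panel per pair, 3 Control (blue) and 3 Prdm16SMKO (red) aortas, and the mean with its SD as a bar; each axis starts at 0. Kcnmb1 over Kcnma1 is lower in all 3 Prdm16SMKO aortas, Abcc9 over Kcnj8 is higher, and Kcnab1 over Kcna5 overlaps.

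With another scaling of the aortas 4 further members were called. After rescaling by median ratio, 5 of the 33 were called, namely Kcnc4, Kcnj12, and Kcns3, higher, and Kcnh2 and Kcnmb1, lower, where 1.28% of all tested genes were called higher and 1.36% lower (200 and 213 genes). After quantile normalization the same 5 members were called, against 1.21% higher and 1.30% lower of all tested genes. The adjusted P values by limma under these 2 settings were 0.0226 and 0.0365 for Kcnh2, 0.0343 and 0.0471 for Kcnmb1, 0.0379 and 0.0408 for Kcnj12, and 0.0348 and 0.0377 for Kcns3. The log2 fold change of Kcnmb1 was −0.48 and −0.45 under them, and that of Kcns3 was 0.72 and 0.69, so the genes kept their direction.

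Genes that work with these channels but fall outside the name rule were given by 3 lists. Of 28 listed genes, 16 were tested, and 0 were called by limma. Of the 16, 4 had an unadjusted P value under 0.05 by limma, against 12.7% of all tested genes. Dpp10, which passed the filter only through the knockout group, is 1 of these 4. Of 10 other auxiliary subunits, 4 were tested. Abcc9 had 109.9, 88.4, and 87.9 TPM in control and 123, 136, and 96.4 TPM in Prdm16SMKO aortas, and the groups overlapped (log2 fold change 0.30, SE 0.15, adjusted P = 0.457, limma). Dpp10, a partner of Kcnd channels, had 0.15, 0.04, and 0.45 TPM in control and 1.36, 3.22, and 1.27 TPM in knockout aortas, low levels without overlap. It passed the filter only through the knockout group, where it is high, so no fold change is read from it. Its relative Dpp6 was listed at 0 in all 6 aortas.

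The sodium pump, which maintains the K+ gradient that these channels use, was represented by 14 genes of its subunits and FXYD regulators, of which 11 were tested. Their median log2 fold change was −0.14, with 3 lower and 2 higher without overlap (14.9% and 4.08% of all tested genes). Fxyd1, phospholemman, the regulator of the pump in muscle, had 533, 482, and 445 TPM in control and 330, 374, and 350 TPM in Prdm16SMKO aortas (log2 fold change −0.47, SE 0.11, adjusted P = 0.0976, limma). Atp1b1, a beta subunit, had 6.68 to 7.95 TPM in control and 9.50 to 11.0 TPM in knockout aortas (log2 fold change 0.48, adjusted P = 0.225, limma). Of the 4 HCN channels, which pass an inward current on hyperpolarization, only Hcn2 was tested, with 0.98 to 1.51 TPM in control and 0.64 to 1.19 TPM in knockout aortas.

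A PRDM16 promoter peak was found for 21 of the 97 members with a RefSeq TSS. Among the 33 members tested in the aorta, 9 had one (27.3%), against 43.3% of all tested genes with a RefSeq TSS, and among the 64 untested members with a TSS, 12 had one (18.8%), against 7.72% of the untested genes. The share was thus below the background for the genes expressed in the aorta and above it for those under the filter, and no test was made, since each condition had 1 library. The vector library, with 67 peaks, had 0 at these promoters. The 9 tested genes were Kcna1, Kcnab2, Kcnc4, Kcnd3, Kcnip3, Kcnma1, Kcnn1, Kcnn3, and Kcnq5, and the 12 untested ones were Kcna3, Kcnc1, Kcnd2, Kcnd3os, Kcng3, Kcnh3, Kcnh4, Kcnh7, Kcnj4, Kcnk10, Kcnk13, and Kcnk2. Several of these, such as Kcnc1, Kcnd2, and Kcnk10, are channels known from neurons and reached at most 0.08, 0.10, and 0.14 TPM in the aortas.

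Promoter peaks were found at members with and without overlap between the groups in the aorta. Of the 12 tested members whose groups did not overlap, 2 had a promoter peak (Kcnc4, the called gene, and Kcnip3, at a TSS inside the gene). Of the 21 whose groups overlapped, 7 had one. With 9 of the 33 tested members at a peak (27.3%), these counts are too small to tell the shares apart, and they were not tested. Over all tested genes with a RefSeq TSS the shares were 46.2% of those without overlap and 42.6% of those with overlap. Of the 12 members with the highest control level, 3 had a promoter peak (Kcnma1, Kcnc4, and Kcnd3). The nearest peak lay 102 kb upstream of the TSS of Kcnmb1, 36.5 kb upstream of that of Kcnh2, 91.0 kb upstream of that of Kcnj12, 116 kb upstream of that of Kcns3, and 340 kb from that of Kcnab1.

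Among the tested members, all peaks at Kcna1, Kcnc4, Kcnd3, Kcnip3, Kcnma1, and Kcnn3 had a fold enrichment below the median of the library, which was 5.27. Of the peaks of Kcnab2, that at 4.29 lay below the median and that at 5.89 above. Peaks of untested members lay on both sides of it, such as Kcnh7 at 3.67 and Kcnk10 at 7.38. Kcnq5 had the highest, with a fold enrichment of 9.14, above 94.9% of the peaks of the library, over 1065 bp from 21961463 to 21962527 on chromosome 1, and its centre lay 53 bp upstream of the TSS. The TPM of Kcnq5 in the aorta did not differ between the groups beyond their spread. At Kcnma1 a peak of 4.34-fold enrichment was centred 237 bp downstream of the TSS, in the first exon, and a second one of 2.94-fold lay 561 bp upstream, higher than 0.967% of the peaks. The 2 peaks of Kcnn1 had 5.98-fold enrichment 110 bp downstream and 5.27-fold 1051 bp upstream of its TSS. The peak of Kcnd3 was shared with Kcnd3os, and the 2 peaks of Kcnab2 lay also within 2 kb of a TSS of Nphp4, as did both peaks of Kcnma1 for 4930519K11Rik and the peak of Kcnk2 for A430027H14Rik, so which of the genes a peak belongs to is not known.

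**Figure D5:**
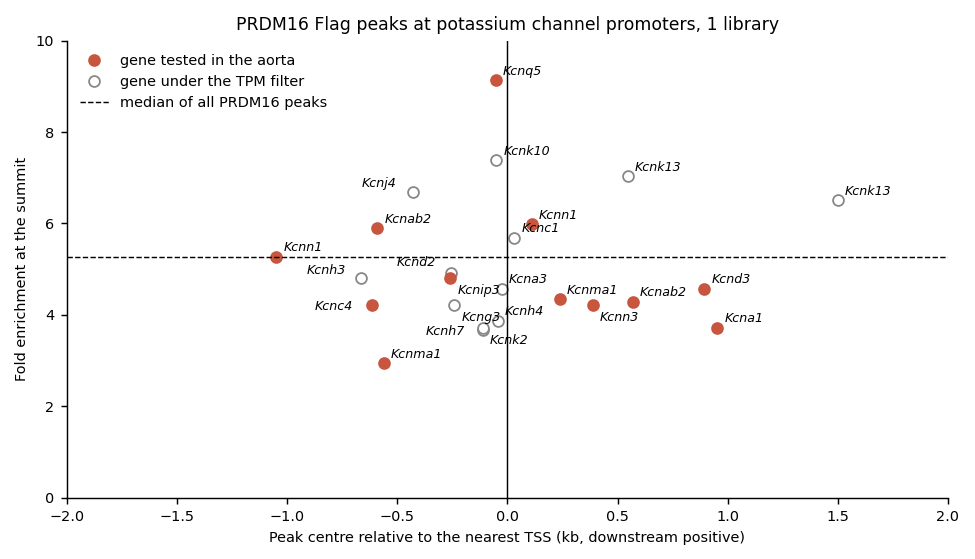
Fold enrichment at the summit of each PRDM16 Flag peak at a potassium channel promoter against the distance of the peak's centre from the nearest RefSeq TSS, from 1 library of fibroblasts, with genes tested in the aorta filled and the median of all 11271 peaks dashed at 5.27. Kcnq5 at 9.14 is the highest, Kcnc4 lies at 4.22 with its centre 614 bp upstream, and no centre lies more than 1500 bp from the TSS.

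Sequence features of the promoters were read from RefSeq's GRCm38.p6 windows of 250 bases upstream to 50 downstream of a start, which were found for 71 of the 98 members (96 windows). The median ratio of observed to expected CpG was 0.434 in these windows and 0.384 in all 32851 windows. Among genes tested in the aorta the order was the other way, with 0.422 in the 35 windows of members and 0.737 in all 13698 windows. Over tested and untested members together, the ratio was 0.587 in the 29 windows of members with a PRDM16 peak and 0.384 in the 67 without one, and for all genes the medians were 0.772 and 0.299. Members with a peak thus had a higher CpG content than members without, as had genes at large. The median GC content was 64.3% in the windows of members with a peak and 58.2% in all windows of members.

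A set of 4 motifs was searched on both strands of these windows. The GATA core AGATAA was in 4 of the 96 windows (4.17%, against 11.2% of all windows), the E-box CACGTG bound by clock factors in 7 (7.29%, against 7.15%), and GAAGATGAG, a sequence bound by zinc fingers of the PRDM16 family, in 0 (0.399% of all windows). The CArG box, the site of serum response factor, was in 0 (1.63% of all windows). In the 35 windows of tested members, AGATAA was in 3 (8.57%, against 6.56% of the windows of all tested genes). CACGTG was in 4 of these 35 (11.4%, against 9.68%). AGATAA can overlap GAAGATGAG by 2 bases, and no other pair of these 3 spelled motifs can overlap by more. Kcnab1, the highest member, was the only one with CACGTG in 2 windows, and 1 of them is shown from 250 bases upstream of that RefSeq start (chr3:65108764-65109013 of GRCm38, forward strand), with the motif in capitals.

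Kcnab1: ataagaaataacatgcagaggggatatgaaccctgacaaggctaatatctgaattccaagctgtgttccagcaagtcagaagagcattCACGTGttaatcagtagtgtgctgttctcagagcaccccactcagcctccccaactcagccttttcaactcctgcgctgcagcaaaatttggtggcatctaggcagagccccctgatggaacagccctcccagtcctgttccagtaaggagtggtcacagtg

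A match is a description of the letters, and the data hold no measurement of clock factor binding. Of the 3 tested members with CACGTG, Kcnab1 and Kcne4 were lower in each Prdm16SMKO aorta without passing the threshold, as given above, and the groups of Kcnn4, a calcium-activated channel, overlapped (log2 fold change 0.00).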

How the data were processed

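RNA-Seq of 6 thoracic aortas was deposited by the authors as a table of TPM values per gene, and ChIP-Seq as MACS2 peak lists called per library on GRCm38, with fold enrichment and −log10 q. Per the labels the libraries were poly(A) selected and carry no strand mark. The submitters' processing notes name STAR 2.7.8a, RSEM 1.3.3, and Bowtie2 2.3.4.1, without roles. No counts were used here, so the read depth behind each TPM is unknown, and 13331 to 14007 genes had at least 1 TPM per aorta. The control that MACS2 used is not given in the sources used here.

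TPM were compared as log2(TPM + 0.1) with limma 3.58.1 in R 4.3.3 (lmFit, eBayes with trend) over genes averaging 0.5 TPM or more, with Benjamini-Hochberg adjustment over all of them; a fold change on this scale understates that of low genes. The fit was tested on simulated data. Peaks were assigned with pandas 2.3.3 to RefSeq TSSs of GRCm38.p6, and exons were read from GENCODE M21. Named were the called members, the 12 highest in control, those whose groups did not overlap, and those with a promoter peak; others were named after their values were seen. Some genes that this rule or a list holds are not reported here singly, and the counts include them. The members and lists were chosen with earlier results of these data known. Nothing in the labels says how the aortas of a group were kept apart beyond separate samples, so P values measure the spread between these samples. Alternatives covered the pseudocount, filter, scaling, variance trend, replicate block, each aorta left out, peak threshold, and TSS window. IgG libraries were not analysed here.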

Additional observations from a re-analysis of the deposited data

How the results depend on the processing

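By limma, 1 potassium channel gene was called. Rescaling by median ratio and quantile normalization each called 5, no mean-variance trend called 0, and leaving out 1 aorta called between 0 and 1. The count stayed at 1 with the replicate number as a block. The deviations of same-numbered aortas from their group means correlated at −0.02462, −0.06997, and −0.00896. Such correlations cannot show whether same-numbered mice were kept or handled together. Of the other pathway genes, 0 were called under all 14 alternatives, which were chosen after seeing the data. Promoter peaks were found for 15 to 23 members under 8 of the 9 other definitions of a peak or TSS, and for 9 at a q of at most 1e-05.

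Among single genes, direction turned only where the log2 fold change of the main fit was smaller than its standard error. The median log2 fold change of the tested members, −0.024, was 0.098 after median ratio rescaling and 0.048 after quantile normalization, and −0.197 to −0.032 with 1 aorta left out. Under the same scalings Kcnj8 came to 0.10 and 0.09, and Kcnn1 to 0.05 after median ratio rescaling. With 1 aorta left out, the log2 fold changes ran from −0.12 to 0.20 for Kcna1, −0.20 to 0.10 for Kcnj8, −0.29 to 0.74 for Kcnk3, −0.28 to 0.18 for Kcnn1, −0.07 to 0.17 for Kcnn3, and −0.11 to 0.22 for Kcnq5. The other 15 of the 21 genes for which the alternatives were run kept their direction. Kcnq3 and Kcnab2 are among these, and both passed the filter only through the control group, so their direction is not read. The rescaled alternatives set the median of all genes near 0, and the cause of the other changes was not tested. Without counts, the depth behind low TPM is unknown.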

Other observations

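Of the 65 members under the filter on TPM, 7 had groups that did not overlap, and they are named here after their values were seen, without a test (the shares among all such genes stand with the counts of members). Kcnf1, a silent modifier subunit, had 0.18, 0.18, and 0.21 TPM in control and 0.61, 0.67, and 0.43 TPM in Prdm16SMKO aortas. Kcnj13, a weak inward rectifier, had 0.64, 0.41, and 0.28 TPM in control and 0, 0.11, and 0.13 TPM in knockout aortas. Kcnk4, a mechanosensitive two-pore channel, had 0.14, 0.40, and 0.45 TPM in control and 0.04, 0, and 0.06 TPM in knockout aortas. All of these levels are low, and with no counts the reads behind them are unknown. Kcnmb4 and Kcnq1 were also higher, and Kcnip1 and Kcnt1 lower, in each Prdm16SMKO aorta.

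Lrrc38, an auxiliary subunit of the BK channel, had 0.04, 0.04, and 0.05 TPM in control and 0.62, 0.96, and 0.73 TPM in Prdm16SMKO aortas, and its mean stayed under the filter. Of its relatives, Lrrc26 and Lrrc52 were listed at 0 in every aorta, and Lrrc55 had 0.34, 0.15, and 0.16 TPM in control and 0.60, 0.50, and 0.30 TPM in Prdm16SMKO aortas, with overlap.

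Some members lie next to each other in the genome. On GRCm38 there were 17 neighbouring pairs less than 500 kb apart, among 29 members. Kcnc4, the called gene, has Kcna10 at a distance of 243 kb on chromosome 3, and Kcna5, Kcna1, and Kcna6 lie in a row with gaps of 105 and 61.9 kb. The groups of these 3 Kcna genes overlapped in the aorta, while Kcna1 alone among them had a PRDM16 promoter peak in the fibroblasts.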
